A study of Mus musculus with 12 samples.

Results

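The nuclear genes of the mitochondrial respiratory chain were followed in dividing donor CD4+ T cells of mice given 1 of 2 ligands of the aryl hydrocarbon receptor (AhR) or vehicle. Genes were taken by symbol: those starting with Nduf, Uqcr or Atp5, those starting with Cox4, Cox5, Cox6, Cox7 or Cox8, and Sdha, Sdhb, Sdhc and Sdhd, each measured by a probe set with that symbol alone. The rule found 89 of the 19938 genes measured. Grouped by the prefix of the symbol, they comprise 36 complex I genes, with Ndufa4, since reassigned to complex IV, and its paralogue Ndufa4l2 among them, 7 assembly factors of complex I (the Ndufaf genes), 4 genes of complex II, 8 of complex III, 17 of complex IV and 17 of complex V. No member passed the test for a change in any comparison, and the lowest values with either ligand were those of the complex I assembly factors Ndufaf4 and Ndufaf6.

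Donor spleen cells of C57Bl/6 mice were labelled with the division dye CFSE and injected into B6D2F1 hosts, whose foreign parental antigens the donor T cells attack, a model of graft-versus-host disease. TCDD, a persistent chlorinated dioxin, was given to the hosts at 15 µg/kg on day 0. Cl-BBQ, another AhR ligand, was given at 2 mg/kg on days 0 and 1, and vehicle was given on days 0 and 1. Donor CD4+ T cells that had divided 2 or more times were sorted from spleen and lymph nodes on day 2 (48 hr), from 4 mice per group aged 10 to 12 weeks. The dose and schedule of TCDD and Cl-BBQ differed, so the ligands were not compared at a matched dose, and TCDD hosts also differed from vehicle hosts in the number of injections. The hosts were dosed, not donor cells in culture, and the RNA of the whole sorted population was read. In such a sample, fewer cells of a kind and less RNA per cell cannot be told apart. The 12 samples, 4 per group and labelled as biological replicates, were each measured on 1 array, and values are log2 intensities.

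The respiratory chain sits in the inner mitochondrial membrane. Complexes I and II pass electrons from NADH and succinate to ubiquinone, complex III hands them to cytochrome c, and complex IV gives them to oxygen. Complexes I, III and IV pump protons as they work, and complex V, the ATP synthase, uses the return of those protons to make ATP. T cells that leave quiescence expand their mitochondria and raise both glycolysis and respiration as they begin to divide. AhR is a transcription factor that moves to the nucleus when a ligand binds and induces genes such as Cyp1b1.

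Promoters of respiratory chain genes are known for sites of the factors NRF1, YY1 and the ETS family, and the AhR partner complex binds a short core of its own. RefSeq promoter windows (GRCm38.p6) of 300 bases, 250 before and 50 after the start, were matched for 73 of the 89 genes and gave 78 windows. Each was searched on both strands for the letters GCATGCGC (NRF1), CCGGAAGT (ETS), TGCGTG (AhR) and AAGATGGCG (YY1). The NRF1 letters stood in 12 of the 78 windows (15.4%), beside 2.71% of all 32851 windows in the table and 3.51% of the 21262 windows of protein-coding genes. The YY1 letters stood in 7 (8.97%, beside 1.4% of all and 1.83% of protein-coding windows), the AhR letters in 12 (15.4%, beside 8.47% and 9.5%) and the ETS letters in 5 (6.41%, beside 3.89% and 5.15%). Windows are shown for 3 genes: Ndufaf4 (chr4:24897833-24898132, plus strand), among the lowest of the 89 genes with both ligands, Sdhb (chr4:140961021-140961320, plus strand), which holds NRF1 and AhR letters, and Atp5j2 (chr5:145191492-145191791, minus strand), which holds AhR and YY1 letters. Capitals mark the matched letters, as read on the strand of the gene. In Ndufaf4 the first capital run holds overlapping NRF1 matches, 1 on each strand, and the second run holds a match on the other strand. In Sdhb the NRF1 match comes first and the AhR match, on the other strand, second. In Atp5j2 the AhR match comes first and the YY1 match second.
Ndufaf4: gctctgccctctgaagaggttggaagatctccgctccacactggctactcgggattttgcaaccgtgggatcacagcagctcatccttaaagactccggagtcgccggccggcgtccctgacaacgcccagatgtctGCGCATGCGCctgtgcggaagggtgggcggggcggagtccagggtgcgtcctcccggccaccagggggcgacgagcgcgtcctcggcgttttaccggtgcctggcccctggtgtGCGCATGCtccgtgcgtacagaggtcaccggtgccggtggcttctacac
Sdhb: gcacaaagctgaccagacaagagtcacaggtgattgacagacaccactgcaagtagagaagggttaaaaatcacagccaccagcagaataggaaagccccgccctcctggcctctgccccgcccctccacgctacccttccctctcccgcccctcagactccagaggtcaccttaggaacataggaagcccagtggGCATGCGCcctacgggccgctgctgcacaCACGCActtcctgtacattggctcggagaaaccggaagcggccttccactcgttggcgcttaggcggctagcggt
Atp5j2: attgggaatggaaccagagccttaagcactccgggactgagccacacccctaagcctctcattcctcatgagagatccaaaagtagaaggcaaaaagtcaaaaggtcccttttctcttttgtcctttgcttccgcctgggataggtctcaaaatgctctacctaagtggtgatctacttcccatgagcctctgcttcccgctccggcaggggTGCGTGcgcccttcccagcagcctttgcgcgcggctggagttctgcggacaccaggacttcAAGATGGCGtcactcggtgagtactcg

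A match is a description of letters and not of a bound site. The 11 genes with AhR letters had a median log2 difference of −0.02 for TCDD against vehicle, with a range from −0.12 (Ndufa7) to 0.04 (Sdhb). The 62 matched genes without them had a median of −0.02 as well. For Cl-BBQ against vehicle the medians were −0.02 with and −0.02 without the AhR letters, and the 11 genes ranged from −0.14 (Ndufa5) to 0.05 (Cox8a). The 12 genes with NRF1 letters had a median of −0.04 with TCDD and −0.03 with Cl-BBQ, beside −0.02 and −0.02 for the 61 without them. The same window of Cyp1b1 held 0 of the 4 letter strings, which says only that they are not in that window. The AhR letters are the core GCGTG with a T before it, a narrower string than the core. Without the T, the core stands in the Cyp1b1 window on the other strand, and unmarked in the Sdhb window. Genes counted as without the AhR letters can therefore still hold the core.

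An AhR target and cell type markers were read as checks on the treatment and the sort. Cyp1b1, a cytochrome P450 gene and textbook AhR target, read 9.67, 9.92, 9.91 and 9.92 on the TCDD arrays and 6.25, 6.57, 6.31 and 6.32 on the vehicle arrays (log2 difference 3.49, limma adjusted p = 3.6e-05). On the Cl-BBQ arrays it read 8.24, 7.90, 5.93 and 7.89, so Cl-BBQ array 3 lay below every vehicle array (log2 difference from vehicle 1.13, limma adjusted p = 0.298). Without that array the difference was 1.65 (limma adjusted p = 3.5e-06). Of 5 AhR battery genes (Ahrr, Cyp1a1, Cyp1b1, Nqo1 and Tiparp), 5 were called higher with TCDD by limma, and with Cl-BBQ 5 had a higher mean, 0 were called and 4 had an unadjusted p under 0.05. On Cl-BBQ array 3, Nqo1 at 6.59 and Ahrr at 5.95 lay above every vehicle array (at most 6.52 and 5.88). On that array Cyp1a1 at 6.43 lay inside the vehicle range (6.26 to 6.45), and Tiparp at 9.25 was level with the lowest vehicle array (9.25). Cd4 ranged from 12.29 to 12.55 and Cd3e from 12.81 to 13.05 over all arrays, and 0 of 8 CD4 T cell markers were called against vehicle with either ligand by limma, with 1 of 8 at an unadjusted p under 0.05 for TCDD and 0 for Cl-BBQ. Of 9 B cell markers, Cd22 (−0.95, limma adjusted p = 0.00364) and Bank1 (−0.48, limma adjusted p = 0.0392) were lower with TCDD and 0 were called with Cl-BBQ, where 2 had an unadjusted p under 0.05. The B cell list as a whole had a median log2 difference of −0.02 with TCDD and 0.01 with Cl-BBQ, and its part in the results below was not tested. Markers of CD8 T cells (2), myeloid and dendritic cells (11), neutrophils and platelets (8), NK cells (5) and erythroid cells (4) gave 0 calls by limma with either ligand, with 1 myeloid marker at an unadjusted p under 0.05 for TCDD and 2 myeloid and 1 erythroid marker for Cl-BBQ. Over all genes, an unadjusted p under 0.05 was found for 8.69% with TCDD and 7.91% with Cl-BBQ. The largest differences with TCDD, and then with Cl-BBQ, were those of Cd28 (0.09) and Cd3d (0.06) for CD4 T cells, Cd8b1 (−0.17) and Cd8a (−0.36) for CD8 T cells, Klrb1c (−0.43) and Klrd1 (0.42) for NK cells, and S100a9 (0.11) and Ngp (0.09) for neutrophils and platelets. With both ligands they were Cd22 for B cells (−0.62 with Cl-BBQ), Fcgr3 for myeloid cells (0.20 and 0.23) and Slc4a1 for erythroid cells (0.09 and 0.14). The 12 arrays correlated at 0.988 to 0.995 with each other across probe sets.

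TCDD was set against vehicle to see whether dosing the host altered the RNA of these genes in the divided donor cells. By limma, 0 of the 89 genes were called at an adjusted p under 0.05, against a background of 1.24% of all genes (247 of 19938). At an unadjusted p under 0.05 there were 4 genes (4.49%), all lower with TCDD, where the background was 8.69% in both directions and 4% in the lower direction. TCDD and vehicle arrays did not overlap for 4 genes (4.49%, background 5.8%). Cox5b was higher on all 4 TCDD arrays (background in this direction 3.15%), and Atp5g1, Ndufaf2 and Ndufaf4 were lower on all 4 (background 2.65%). The median log2 difference of the 89 genes was −0.02, beside 0.00 for all genes and −0.02 for the 9969 genes above the median intensity. Of the 89, 30 had a higher mean with TCDD and 59 a lower one (66.3% lower, beside 47.9% of all genes). Of the 85 members above the median intensity, 69.4% were lower, beside 57.1% of all genes above it.

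The intervals bound how large a change in signal these arrays could hide. How signal follows RNA was not measured here, so for bright members too, such as Cox6b1 (vehicle mean 13.31), the intervals bound signal alone. For genes read near or below the median intensity of all genes, 7.40, a bound on signal need not bound the transcript. Among such genes were Cox7a1, Cox6a2, Cox8c and Cox7b2, with vehicle means of 7.43, 7.64, 7.44 and 4.87. Taken gene by gene, the 95% interval of the TCDD difference lay within 1.5-fold in either direction for 89 of 89 genes (97.8% of all genes), and within 1.2-fold for 79 (88.8%, beside 65% of all genes). The lowest bound was −0.49 and the highest 0.29 on the log2 scale. The spread behind them was small: the median within-group SD was 0.08 for the 89 genes and 0.11 for all genes. Within the chain it ran from 0.05 for complex V to 0.14 for the complex I assembly factors, the lowest single value being 0.02 (Atp5g3, an ATP synthase c subunit gene) and the highest 0.19 (Ndufaf3, an assembly factor).

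**Figure D1:**
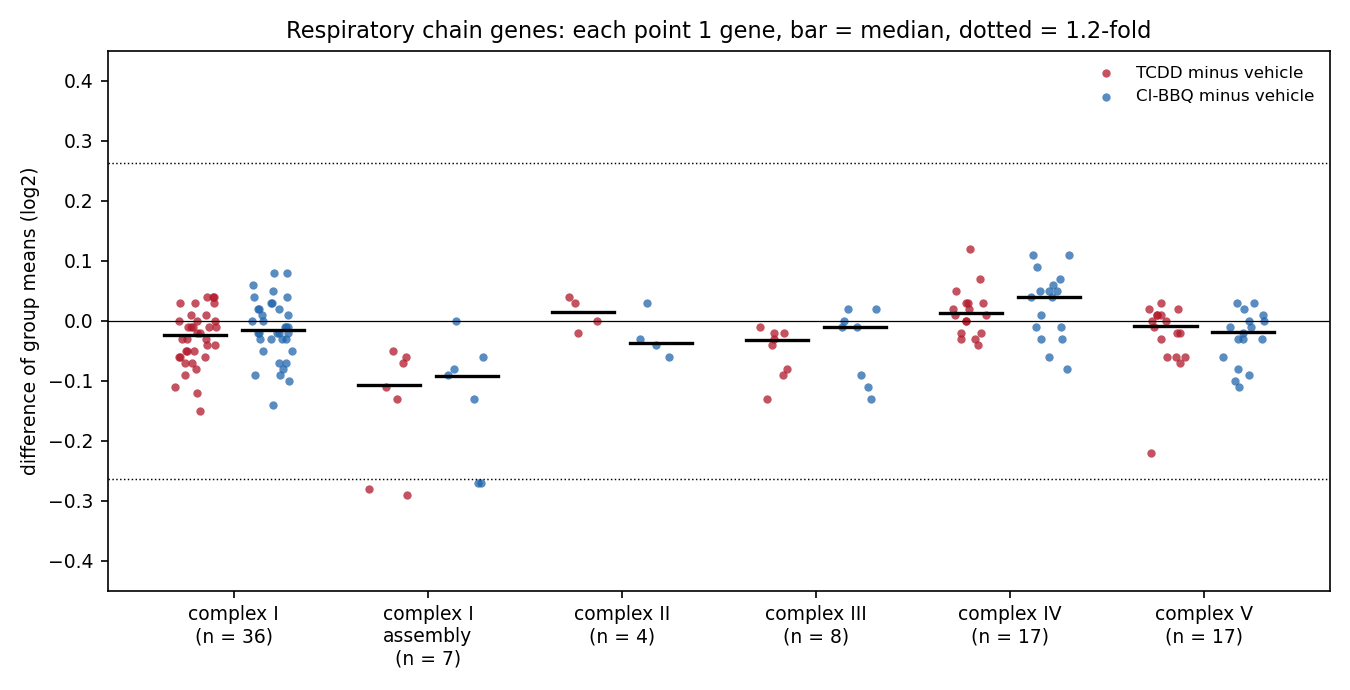
Difference of group means (log2) for each of the 89 genes, by complex, with TCDD minus vehicle in red left of Cl-BBQ minus vehicle in blue; each point is 1 gene, bars are medians and dotted lines mark 1.2-fold. Medians lie between −0.11 and 0.04, and the lowest points are the assembly factors Ndufaf6 and Ndufaf4 at −0.29 to −0.27.

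Complex I, the entry point for NADH electrons, had 36 measured genes by that grouping, of which 10 had a higher and 26 a lower mean with TCDD than with vehicle (median −0.02). By limma 0 were called and 0 had an unadjusted p under 0.05. The lowest was Ndufs8, a core subunit that carries iron-sulfur clusters, with 10.06, 10.19, 10.12 and 10.29 on the TCDD arrays against 10.34, 10.34, 10.20 and 10.39 on the vehicle arrays (−0.15, interval −0.31 to 0.01, limma adjusted p = 0.624). Its groups overlapped through vehicle array 3. Ndufa7, an accessory subunit, followed at −0.12 and Ndufa5, an accessory subunit of the matrix arm, at −0.11. The highest was Ndufv3, a small accessory subunit, with 10.71, 10.89, 10.86 and 10.94 on the TCDD arrays and 10.77, 10.94, 10.72 and 10.81 on the vehicle arrays (0.04, interval −0.11 to 0.19). Those arrays interleaved. Ndufs1, the large core subunit with several iron-sulfur clusters, differed by −0.02 (interval −0.14 to 0.11), and Ndufv1, which binds NADH, by −0.04.

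The 7 complex I assembly factors, which help build the complex and are not part of the finished enzyme, all had a lower mean with TCDD (median −0.11). By limma, though, 0 of 7 were called. An unadjusted p under 0.05 was found for 2 of 7 (28.6%), beside 8.69% of all genes (4% in the lower direction). Ndufaf4, a factor for an early assembly intermediate, read 10.05, 10.03, 10.08 and 10.04 with TCDD and 10.60, 10.19, 10.22 and 10.30 with vehicle. All TCDD arrays lay below all vehicle arrays, and vehicle array 1 stood above its group. The difference was −0.28, or 1.21-fold lower (interval −0.46 to −0.09, limma adjusted p = 0.201), and it was −0.19 without vehicle array 1 (limma adjusted p = 0.507). Over 21 alternative fits it ran from −0.32 to −0.19 (limma adjusted p from 0.0713 to 0.507). Ndufaf6, a factor related to phytoene synthases, read 7.59, 7.69, 7.73 and 7.86 with TCDD and 8.03, 7.97, 7.82 and 8.21 with vehicle (−0.29, interval −0.49 to −0.09, limma adjusted p = 0.227). Its groups overlapped by a single array on each side.

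Ndufaf2, a paralogue of the subunit Ndufa12 that acts late in assembly, read 10.72, 10.65, 10.71 and 10.75 with TCDD and 10.79, 10.82, 10.82 and 10.83 with vehicle (−0.11, interval −0.23 to 0.02, limma adjusted p = 0.664). Its groups did not overlap, but the gap between them was small. Ndufaf5 and Ndufaf7, which modify core subunits, differed by −0.13 (interval −0.31 to 0.05) and −0.07 (interval −0.27 to 0.14). Ndufaf1, which acts on the membrane arm, differed by −0.06 and Ndufaf3, a partner of Ndufaf4, by −0.05.

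**Figure D2:**
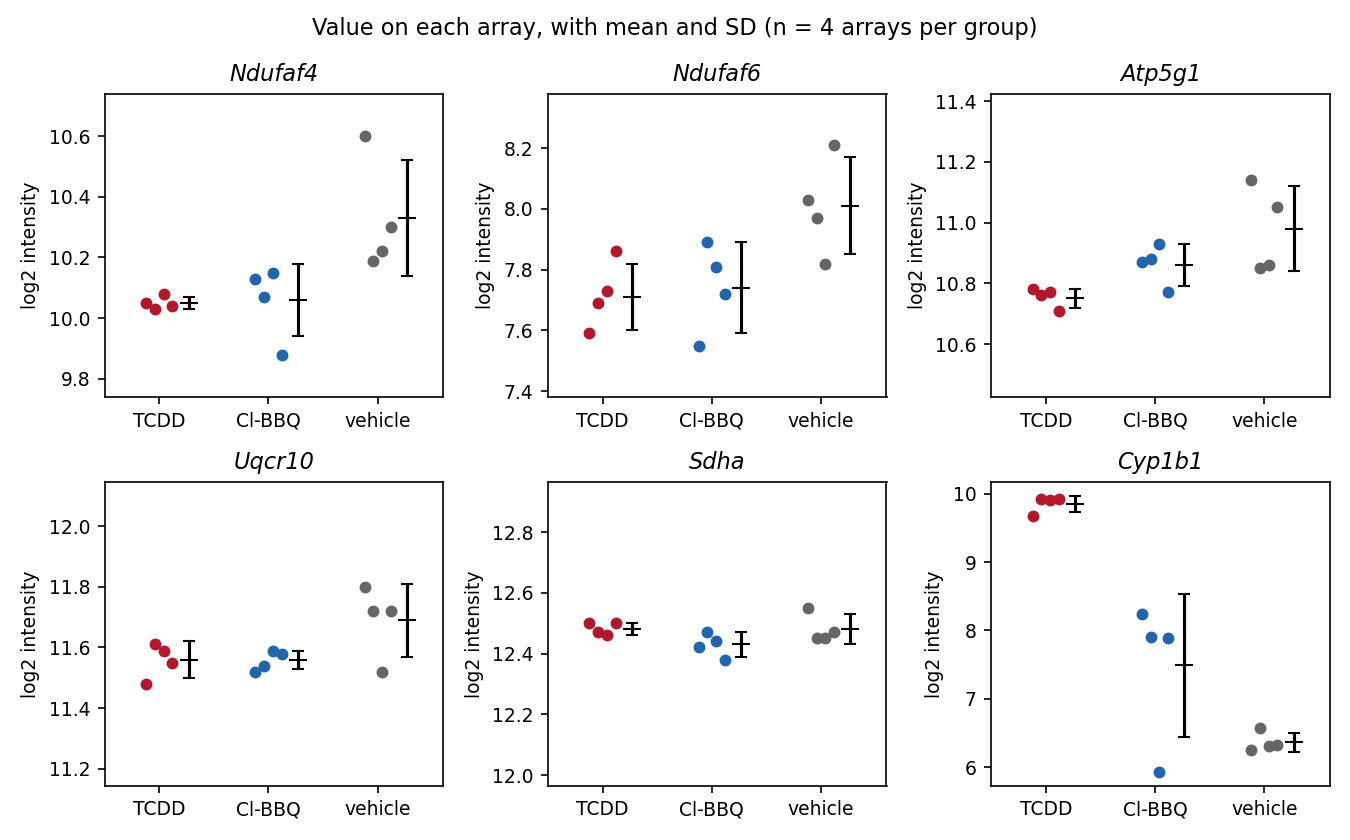
Log2 intensity on each array of Ndufaf4, Ndufaf6, Atp5g1, Uqcr10, Sdha and Cyp1b1, with TCDD left, Cl-BBQ in the middle and vehicle right; points are arrays, and horizontal marks with bars are means and SD (n = 4). Ndufaf4 reads 10.03 to 10.08 with TCDD, 9.88 to 10.15 with Cl-BBQ and 10.19 to 10.60 with vehicle, while Cyp1b1 spans several log2 units on its own axis.

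Complex II, succinate dehydrogenase, links the tricarboxylic acid cycle to the chain, and its 4 subunits differed by −0.02 to 0.04 with TCDD (0 called by limma, 0 at an unadjusted p under 0.05). Sdha, the flavoprotein that oxidises succinate, read 12.50, 12.47, 12.46 and 12.50 with TCDD and 12.55, 12.45, 12.45 and 12.47 with vehicle. The TCDD values lay inside the vehicle range, and the interval of the difference ran from −0.07 to 0.07. Sdhb, the iron-sulfur subunit, read 10.54, 10.65, 10.57 and 10.60 with TCDD and 10.70, 10.45, 10.47 and 10.57 with vehicle (0.04, interval −0.09 to 0.18). Sdhc and Sdhd, the membrane anchors, differed by −0.02 (interval −0.13 to 0.10) and 0.03 (interval −0.12 to 0.18).

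Complex III, the cytochrome bc1 complex, had 8 measured subunits, and all had a lower mean with TCDD, from −0.13 to −0.01 (median −0.032). By limma 0 were called and 1 (12.5%, background 8.69%) had an unadjusted p under 0.05. Without vehicle array 1, 3 were higher and 5 lower (median −0.023), and without vehicle array 3 the median was −0.075. Uqcr10, a small structural subunit, read 11.48, 11.61, 11.59 and 11.55 with TCDD and 11.80, 11.72, 11.52 and 11.72 with vehicle (−0.13, interval −0.25 to −0.02, limma adjusted p = 0.457). Vehicle array 3 lay among the TCDD arrays and the others above them. Uqcrc1, a core subunit, differed by −0.09, and Uqcrfs1, the Rieske iron-sulfur protein, by −0.08. Uqcrb, known as the ubiquinone-binding protein, differed by −0.01 (interval −0.14 to 0.12).

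Complex IV, cytochrome c oxidase, had 17 measured genes, 11 with a higher and 6 with a lower mean with TCDD (median 0.01; 0 called by limma, 0 at an unadjusted p under 0.05). The higher ones included Cox4i2, Cox6a2, Cox6b2, Cox7a1, Cox7b2, Cox8b and Cox8c, all read near or below the median intensity, 7.40. The 6 lower ones all read well above it. Of all genes 47.9% had a lower mean with TCDD, beside 57.1% of those above that intensity. The nuclear subunits surround a core made from mitochondrial DNA and tune the activity of the enzyme. Cox5b, a zinc-binding subunit, read 12.45, 12.43, 12.42 and 12.45 with TCDD and 12.40, 12.41, 12.40 and 12.41 with vehicle (0.03, interval −0.03 to 0.10, limma adjusted p = 0.861). The groups did not overlap, at a difference of 1.02-fold. Cox7a1, the heart and muscle form of subunit VIIa, had the highest difference, with 7.50, 7.51, 7.70 and 7.52 with TCDD and 7.45, 7.35, 7.39 and 7.54 with vehicle (0.12, interval −0.04 to 0.29). TCDD array 3 stood above the other arrays of its group. Cox6c, a small subunit, was lowest at −0.04 (interval −0.13 to 0.05).

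Complex V, the ATP synthase, had 17 measured genes, 7 with a higher and 10 with a lower mean with TCDD (median −0.01). By limma 0 were called and 1 (5.88%, background 8.69%) had an unadjusted p under 0.05. In the catalytic head of the enzyme, Atp5a1 (subunit alpha) differed by 0.00 (interval −0.07 to 0.07) and Atp5b (subunit beta) by 0.02 (interval −0.04 to 0.08). Atp5md, a small subunit tied to ATP synthase dimers, was highest at 0.03 (interval −0.08 to 0.14). The exception by size was Atp5g1, 1 of 3 genes that encode the same mature c subunit of the proton ring. It read 10.78, 10.76, 10.77 and 10.71 with TCDD and 11.14, 10.85, 10.86 and 11.05 with vehicle. All TCDD arrays lay below all vehicle arrays, by 1.17-fold on average (−0.22, interval −0.36 to −0.08, limma adjusted p = 0.177, the lowest of the 89). Both probe sets of Atp5g1 gave −0.22. The value was −0.17 without vehicle array 1 (limma adjusted p = 0.473). Over the 21 alternative fits it ran from −0.26 to −0.17 (limma adjusted p from 0.0662 to 0.473). The paralogues Atp5g2 and Atp5g3 differed by −0.06 (interval −0.14 to 0.01) and −0.03 (interval −0.08 to 0.02).

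Cl-BBQ, the other ligand, was set against the same 4 vehicle arrays, so its values are not independent of those above. By limma, 0 of the 89 genes were called, against a background of 0.196% (39 of 19938 genes). At an unadjusted p under 0.05 there were 4 genes (4.49%), all lower with Cl-BBQ, where the background was 7.91% in both directions and 3.8% in the lower direction. Cl-BBQ and vehicle arrays did not overlap for Ndufaf2 and Ndufaf4, both lower with Cl-BBQ (2.25%, background 3.85% in both directions and 1.58% in the lower direction). The median log2 difference was −0.01, beside 0.01 for all genes and −0.02 for the brighter genes. Of the 89 genes, 34 had a higher mean with Cl-BBQ and 55 a lower one (61.8% lower, beside 45.2% of all genes). Of the 85 members above the median intensity, 63.5% were lower, beside 57.9% of all genes above it. The 95% interval lay within 1.5-fold for 89 of 89 genes (98.4% of all genes) and within 1.2-fold for 80 (89.9%, beside 63.9% of all genes), with extreme bounds of −0.46 and 0.33.

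The complex I assembly factors again held the lowest values with Cl-BBQ, with 1 of 7 higher, 6 of 7 lower and a median of −0.09. That median ran from −0.13 to −0.02 over the 21 alternative fits. By limma 0 were called. An unadjusted p under 0.05 was found for 3 (42.9%), beside 7.91% of all genes (3.8% in the lower direction). Ndufaf4 read 10.13, 10.07, 10.15 and 9.88 with Cl-BBQ and 10.60, 10.19, 10.22 and 10.30 with vehicle (−0.27, interval −0.45 to −0.09, limma adjusted p = 0.358). The groups did not overlap, and Cl-BBQ array 4 was the lowest of all. Without vehicle array 1 the difference was −0.18 (limma adjusted p = 0.752). Over the 21 alternative fits it ran from −0.32 to −0.18 (limma adjusted p from 0.182 to 0.752). Ndufaf6 read 7.55, 7.89, 7.81 and 7.72 with Cl-BBQ and 8.03, 7.97, 7.82 and 8.21 with vehicle, so the groups overlapped at Cl-BBQ array 2 and vehicle array 3 (−0.27, interval −0.46 to −0.07, limma adjusted p = 0.447). Ndufaf2 read 10.77, 10.67, 10.75 and 10.53 with Cl-BBQ and 10.79, 10.82, 10.82 and 10.83 with vehicle (−0.13, interval −0.25 to −0.01, limma adjusted p = 0.597). The whole Cl-BBQ range lay below the vehicle range, which was narrow. Ndufaf3 differed by 0.00 (interval −0.24 to 0.24), the widest interval in the group.

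Among the structural subunits, Cl-BBQ values lay close to those of vehicle. In complex I, 13 of 36 had a higher and 23 a lower mean (median −0.015; 0 called by limma, 0 at an unadjusted p under 0.05). That direction turned to 20 higher and 16 lower without vehicle array 1 (median 0.012) and to 19 and 17 with quantile normalisation (median 0.002). Ndufa5 was lowest, with 10.57, 10.30, 10.53 and 10.42 with Cl-BBQ and 10.74, 10.58, 10.51 and 10.53 with vehicle (−0.14, interval −0.29 to 0.02). Those groups overlapped. Ndufa4l2, a paralogue of Ndufa4 known to be induced in hypoxia, was highest at 0.08 (interval −0.06 to 0.22). Ndufa10, an accessory subunit of the membrane arm, also differed by 0.08 (interval −0.03 to 0.18).

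In complex II, Sdha read 12.42, 12.47, 12.44 and 12.38 with Cl-BBQ, against 12.55, 12.45, 12.45 and 12.47 with vehicle (−0.06, interval −0.13 to 0.01). The groups overlapped at 12.45 to 12.47. Sdhb, Sdhc and Sdhd differed by 0.03, −0.04 and −0.03. In complex III, Uqcr10 read 11.52, 11.54, 11.59 and 11.58 with Cl-BBQ and 11.80, 11.72, 11.52 and 11.72 with vehicle (−0.13, interval −0.25 to −0.02, limma adjusted p = 0.57). As with TCDD, vehicle array 3 lay at the level of the treated arrays. Uqcrb differed by −0.11 (interval −0.23 to 0.02) and Uqcrh, the hinge protein, by 0.02.

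In complex IV, 11 of 17 genes had a higher and 6 a lower mean with Cl-BBQ (median 0.04; 0 called by limma, 0 at an unadjusted p under 0.05). Over all genes 45.2% had a lower mean with Cl-BBQ, beside 57.9% of those above the median intensity, 7.40. The higher ones in complex IV included Cox4i2, Cox6a2, Cox7a1, Cox7b2, Cox8b and Cox8c, all near or below that intensity. Cox6b2, below it too, was among the lower ones in complex IV. The highest was Cox6a2, the heart and muscle form of subunit VIa, with 7.80, 7.80, 7.80 and 7.62 with Cl-BBQ and 7.66, 7.70, 7.68 and 7.51 with vehicle (0.11, interval −0.07 to 0.30). Array 4 was the lowest in both groups, and the groups overlapped through Cl-BBQ array 4. Cox7a2, the form of subunit VIIa made in most tissues, was lowest at −0.08 (interval −0.17 to 0.01). In complex V, 5 of 17 had a higher and 12 a lower mean (median −0.02; 0 called by limma, 0 at an unadjusted p under 0.05). Atp5g1 read 10.87, 10.88, 10.93 and 10.77 with Cl-BBQ and 11.14, 10.85, 10.86 and 11.05 with vehicle (−0.11, interval −0.25 to 0.03, limma adjusted p = 0.715). The Cl-BBQ arrays overlapped vehicle arrays 2 and 3. Atp5j2, subunit f of the membrane part, was highest at 0.03 (interval −0.05 to 0.11).

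TCDD was also set against Cl-BBQ directly, at the doses and schedules given, which differed. By limma, 0 of the 89 genes were called, against a background of 0.015% (3 of 19938 genes). Cox6c alone had an unadjusted p under 0.05 (1.12%, background 2.99% in both directions and 1.37% in the lower direction), with 12.52, 12.65, 12.51 and 12.63 with TCDD and 12.58, 12.73, 12.68 and 12.74 with Cl-BBQ. The groups overlapped, and the difference was −0.11 (interval −0.20 to −0.02, limma adjusted p = 1). TCDD arrays were above all Cl-BBQ arrays for Ndufa9 (0.05, interval −0.02 to 0.12), a complex I accessory subunit, and Atp5c1 (0.03, interval −0.03 to 0.08), the gamma subunit of the rotor (2.25%, background 2.04% in both directions and 1.24% in the higher direction). The interval of the difference lay within 1.5-fold for 89 of 89 genes (99.2% of all genes) and within 1.2-fold for 85 (95.5%, beside 72.2% of all genes). Its extreme bounds were −0.32 and 0.29. The median difference was −0.01.

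Complex by complex, the difference between the ligands ran from −0.08 (Ndufs8) to 0.05 (Ndufs1) in complex I and from −0.05 (Ndufaf5) to 0.03 (Ndufaf7) in the assembly factors. It ran from 0.02 (Sdhb) to 0.06 (Sdhd) in complex II and from −0.10 (Uqcrc1) to 0.09 (Uqcrb) in complex III. In complex IV the ends were Cox6c and, at 0.07, Cox7a1. In complex V they were Atp5g1 at −0.11 (interval −0.25 to 0.03) and Atp5md at 0.11 (interval −0.01 to 0.22). Atp5md read 11.90, 11.85, 11.97 and 11.82 with TCDD and 11.85, 11.76, 11.88 and 11.63 with Cl-BBQ, and those ranges overlapped.

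The labels state no pairing. Deviations of TCDD and Cl-BBQ arrays with the same replicate number correlated at 0.606, 0.113, 0.157 and 0.365, so the ligands were also read within these pairs. Correlations between arrays with different numbers are not given, so the pairing stays an assumption. The replicate block below also covered the vehicle arrays, which the same rule does not pair with either ligand. Its intervals and p-values therefore do not rest on these pairs alone. Cox6c was lower with TCDD in 4 of 4 pairs (−0.06, −0.08, −0.18 and −0.11), and with the replicate block its interval ran from −0.18 to −0.04 (unadjusted p = 0.00613, limma adjusted p = 1). Atp5md was higher with TCDD in 4 of 4 pairs (0.05, 0.09, 0.09 and 0.19), with an interval of 0.01 to 0.20 under the block (unadjusted p = 0.0329, limma adjusted p = 1). These pair differences are those of genes with some of the largest values in the comparison. Atp5g1, at −0.11, was also lower with TCDD in 4 of 4 pairs (−0.09, −0.12, −0.16 and −0.06). Its interval under the block ran from −0.25 to 0.03 (limma unadjusted p = 0.108). Over the 89 genes, 13 (14.6%) went one way in all 4 pairs, 6 higher and 7 lower with TCDD, beside 14.1% of all genes. With the block, 0 of the 89 were called by limma (background 0.0251%) and 2 had an unadjusted p under 0.05 (2.25%, background 3.78%).

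Several subunits are encoded by paralogues with different tissue use, and these were read side by side within each gene. Cox4i1, the common form of subunit IV, read 12.52, 12.61, 12.50 and 12.59 with TCDD, 12.42, 12.63, 12.60 and 12.61 with Cl-BBQ and 12.64, 12.64, 12.50 and 12.52 with vehicle, and the ranges overlapped. Its form known from lung and low oxygen, Cox4i2, differed by 0.02 with TCDD (interval −0.15 to 0.20) and 0.05 with Cl-BBQ (interval −0.12 to 0.23). Cox6a1, the widespread form of subunit VIa, read 13.02, 12.91, 12.96 and 12.90 with TCDD, 12.99, 12.86, 12.92 and 12.91 with Cl-BBQ and 12.86, 12.90, 12.90 and 12.86 with vehicle. Its difference with TCDD was 0.07 (interval −0.00 to 0.14, limma adjusted p = 0.624) and the TCDD and vehicle arrays met only at 12.90. Cox6a2 differed by 0.05 with TCDD (interval −0.13 to 0.23). For subunit VIb, Cox6b1 differed by −0.00 with TCDD and −0.01 with Cl-BBQ, and the testis form Cox6b2 by 0.03 and −0.03.

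For subunit VIIa, Cox7a1 differed by 0.12 with TCDD and 0.06 with Cl-BBQ and Cox7a2 by −0.03 and −0.08. Cox7a2l, a paralogue of both, differed by 0.01 with TCDD (interval −0.17 to 0.18) and 0.05 with Cl-BBQ (interval −0.12 to 0.23). For subunit VIIb, Cox7b differed by −0.02 and −0.06, and Cox7b2 by 0.00 and 0.04. For subunit VIII, the common Cox8a differed by 0.02 and 0.05, the heart and muscle Cox8b by 0.03 and 0.09, and the testis Cox8c by 0.01 and 0.11. Cox8c had the widest interval of these, −0.11 to 0.33 with Cl-BBQ. Ndufa4 differed by 0.01 with either ligand, and Ndufa4l2 by 0.00 and 0.08. Means of 4 of these genes, Cox6b2, Cox7b2, Cox8b and Ndufa4l2, lay below the median intensity of all genes, 7.40, and the other 85 of the 89 lay above it.

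**Figure D3:**
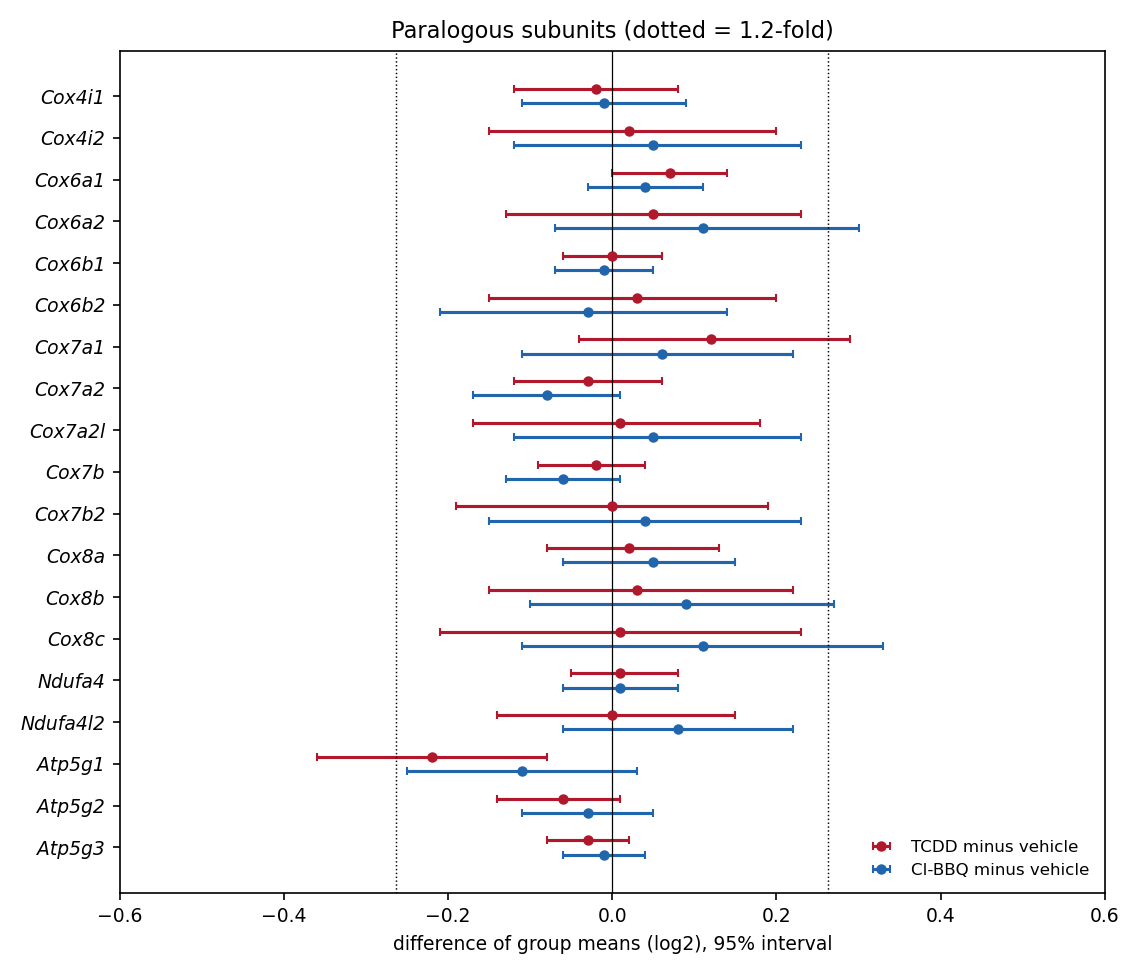
Difference of group means (log2) with its 95% interval for 19 paralogous subunit genes, TCDD minus vehicle in red above Cl-BBQ minus vehicle in blue; dotted lines mark 1.2-fold. The interval for Atp5g1 with TCDD, −0.36 to −0.08, lies wholly below 0, while its paralogue Atp5g3 spans −0.08 to 0.02.

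Probe sets of 1 gene were compared with each other. The 89 genes had 114 probe sets, and 17 genes had more than 1. Fitted singly by limma, 0 of the 114 were called in any comparison, and 5 had an unadjusted p under 0.05 for TCDD against vehicle, 4 for Cl-BBQ against vehicle and 2 for TCDD against Cl-BBQ. Over all genes, 1 probe set each, those shares were 8.69%, 7.91% and 2.99%. The shares over all probe sets were not taken. The probe sets of a gene spanned a median of 0.03 on the log2 scale for TCDD against vehicle. The largest span there was 0.07, for Ndufa11. It was 0.08 for Cl-BBQ against vehicle (Uqcr11) and 0.12 for TCDD against Cl-BBQ (Atp5pb, −0.08 to 0.04), no smaller than the most extreme differences of that comparison. Probe sets of 6 of the 17 genes differed in sign for TCDD, at differences close to 0, as in Ndufb11 (−0.05 to 0.00).

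Level by array was described as the median, over the 89 genes, of the deviation from each gene's mean over the 12 arrays. It was −0.04, 0.02, −0.03 and 0.01 on the TCDD arrays, −0.06, 0.03, −0.00 and −0.00 on the Cl-BBQ arrays and 0.05, 0.00, −0.04 and 0.02 on the vehicle arrays. The groups overlapped, and the genes above the median intensity moved with them (−0.05, 0.02, −0.01 and 0.03 with TCDD, −0.08, 0.04, −0.01 and 0.03 with Cl-BBQ, and 0.04, 0.00, −0.04 and 0.04 with vehicle). The 7 assembly factors deviated further, with −0.14, −0.05, −0.06 and 0.02 with TCDD, −0.18, 0.05, 0.01 and −0.10 with Cl-BBQ, and 0.13, 0.09, −0.03 and 0.16 with vehicle. Vehicle array 3 lay among the treated ones. Vehicle array 1 was the highest for the 89 genes. Without it the median TCDD difference was −0.005, with 40 higher and 49 lower, and the median Cl-BBQ difference was −0.001, with 44 higher and 45 lower. Without vehicle array 3 the medians were −0.041 and −0.035. By complex, the medians of complex I were −0.011 with TCDD without vehicle array 1, and −0.048 with TCDD and −0.036 with Cl-BBQ without vehicle array 3. Those of complex II were 0.056 with TCDD (4 higher) and 0.009 with Cl-BBQ without vehicle array 1, and −0.012 and −0.064 without vehicle array 3. The complex III median with Cl-BBQ was −0.004 without vehicle array 1, −0.039 without vehicle array 3 and 0.001 with quantile normalisation, and the complex V medians without vehicle array 1 were −0.005 and −0.006. With the values centred on each array median, 18 genes were higher and 71 lower with TCDD (median −0.035), and 23 higher and 66 lower with Cl-BBQ (median −0.035). The same centring moved the median of all genes from 0.004 to −0.013 with TCDD and from 0.011 to −0.011 with Cl-BBQ. Under it the 57 cytosolic ribosomal protein genes had 12 higher and 45 lower with TCDD, and 7 higher and 50 lower with Cl-BBQ. Centring turned the TCDD median of complex IV to −0.004 (8 higher, 9 lower) and that of complex II to −0.003.

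**Figure D4:**
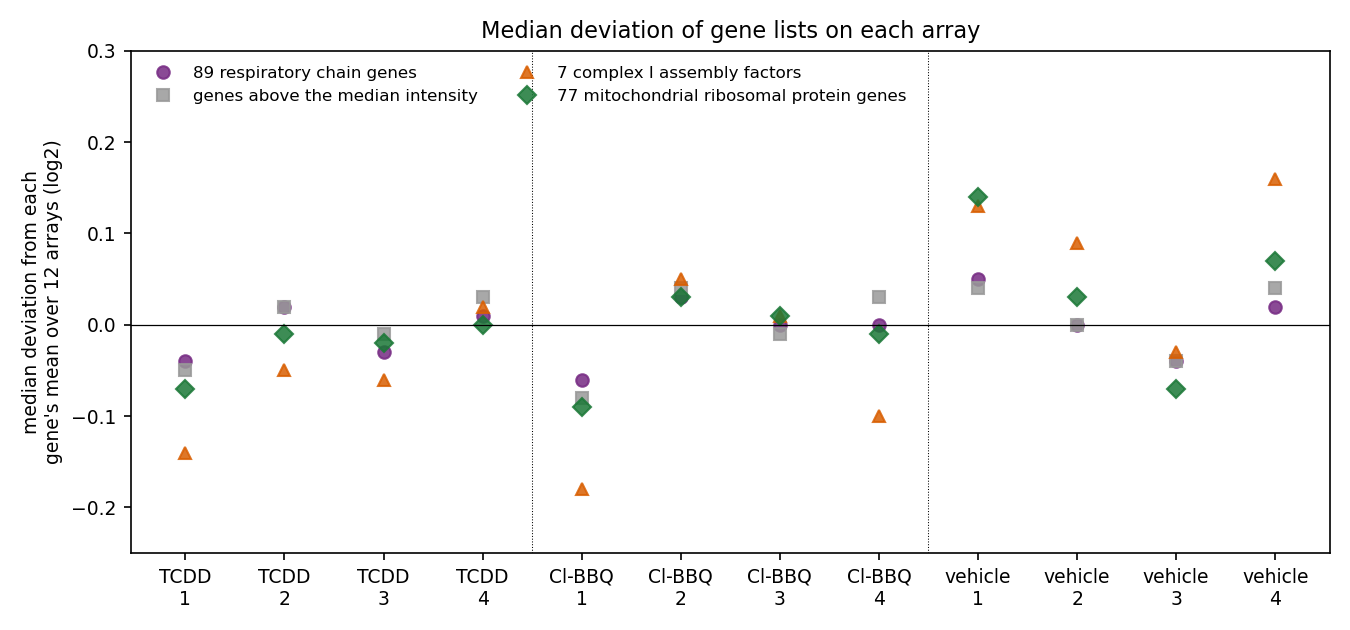
Median deviation (log2) of 4 gene groups from each gene's mean over 12 arrays, for TCDD arrays at the left, Cl-BBQ arrays in the middle and vehicle arrays at the right. The 89 respiratory chain genes stay within −0.06 and 0.05 beside the genes above the median intensity, and the 7 assembly factors and 77 mitochondrial ribosomal protein genes are highest on vehicle arrays 1 and 4.

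Other mitochondrial gene lists were read in the same fit. In each of them 0 genes were called by limma against vehicle with either ligand. Over all genes, 8.69% had an unadjusted p under 0.05 with TCDD (4% in the lower direction). With Cl-BBQ the share was 7.91% (3.8% in the lower direction). Of the genes above the median intensity, 57.1% had a lower mean with TCDD and 57.9% with Cl-BBQ. Factors that assemble the chain, 44 genes with the 7 above among them, had a median of −0.06 with TCDD (8 higher, 36 lower; 6 at an unadjusted p under 0.05) and −0.04 with Cl-BBQ (13 higher, 31 lower; 4 at an unadjusted p under 0.05). Without vehicle array 1 those medians were −0.036 and −0.022, and without vehicle array 3 they were −0.11 and −0.10. The most positive value was that of Tmem126b, a complex I assembly factor, at 0.18 and 0.14. The 77 mitochondrial ribosomal protein genes, whose ribosome makes the core subunits encoded in mitochondrial DNA, had medians of −0.06 with TCDD (15 higher, 62 lower; 8 at an unadjusted p under 0.05) and −0.06 with Cl-BBQ (16 higher, 61 lower; 7 at an unadjusted p under 0.05). Without vehicle array 1 those of the ribosomal list were −0.033 and −0.037, and without vehicle array 3 −0.095 and −0.100. Mrps27, a protein of the small ribosomal subunit, was lowest at −0.22 with TCDD and −0.22 with Cl-BBQ (limma adjusted p = 0.462 and 0.587).

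The import machinery, 24 genes, had medians of −0.05 with TCDD (2 higher, 22 lower; 0 at an unadjusted p under 0.05) and −0.08 with Cl-BBQ (3 higher, 21 lower; 3 at an unadjusted p under 0.05). They were −0.025 and −0.050 without vehicle array 1, and −0.085 and −0.093 without vehicle array 3. Timm9, a small chaperone of the intermembrane space, was lowest with TCDD (−0.16, limma adjusted p = 0.596). Its partner Timm10 was lowest with Cl-BBQ, with 7.98, 8.06, 8.16 and 8.17 with Cl-BBQ against 8.38, 8.22, 8.27 and 8.32 with vehicle (−0.21, limma adjusted p = 0.403). All Cl-BBQ arrays lay below all vehicle arrays.

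Electron carriers and ubiquinone synthesis, 16 genes, had medians of −0.08 (2 higher, 14 lower; 1 at an unadjusted p under 0.05) and −0.08 (3 higher, 13 lower; 1 at an unadjusted p under 0.05). Without vehicle array 1 the medians were −0.041 and −0.027, with 5 higher and 11 lower each, and without vehicle array 3 they were −0.128 and −0.107. Gpd2, which feeds glycerol phosphate electrons to ubiquinone, was the lowest of them, with 10.20, 10.22, 10.23 and 10.16 with TCDD against 10.45, 10.26, 10.38 and 10.67 with vehicle (−0.24, limma adjusted p = 0.339). All TCDD arrays lay below all vehicle arrays. With Cl-BBQ it differed by −0.20. Cytochrome c, Cycs, differed by 0.06 with TCDD and −0.02 with Cl-BBQ.

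The tricarboxylic acid cycle, 16 genes, had medians of −0.04 with TCDD and −0.04 with Cl-BBQ (2 and 0 at an unadjusted p under 0.05). They were −0.016 and −0.023 without vehicle array 1. Dlst, a subunit of the oxoglutarate dehydrogenase complex, read 11.23, 11.27, 11.24 and 11.27 with TCDD and averaged 11.09 ± 0.09 with vehicle (SD, n = 4; 0.16, limma adjusted p = 0.185). All TCDD arrays lay above all vehicle arrays. With Cl-BBQ the largest difference was that of Dlat, a subunit of pyruvate dehydrogenase (−0.13, limma adjusted p = 0.677). Carriers, channels and uncoupling proteins, 11 genes, had medians of −0.03 and −0.01 (0 and 1 at an unadjusted p under 0.05). The Cl-BBQ median was −0.002 without vehicle array 1. Mpc1, a subunit of the mitochondrial pyruvate carrier, had the largest difference with TCDD (−0.12, limma adjusted p = 0.796). Ucp3, an uncoupling protein, had the largest with Cl-BBQ, with 6.40, 6.48, 6.46 and 6.61 with Cl-BBQ against 6.40, 6.31, 6.23 and 6.29 with vehicle (0.18, interval 0.04 to 0.32, limma adjusted p = 0.475). The Cl-BBQ arrays lay above the vehicle arrays, the closest pair by less than the rounding of the values. All these Ucp3 values lay below the median intensity of all genes, 7.40, where signal need not follow the transcript.

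Regulators of mitochondrial biogenesis, 18 genes, had medians of −0.06 and −0.08 (2 and 3 at an unadjusted p under 0.05). Without vehicle array 3 the TCDD median was −0.099. Among them Myc, a driver of growth in activated T cells, read 10.43, 10.49, 10.61 and 10.65 with TCDD and 10.95, 10.86, 10.82 and 10.67 with vehicle (−0.28, limma adjusted p = 0.127). The groups did not overlap, though TCDD array 4 and vehicle array 4 lay close together. Tfb1m, which methylates mitochondrial ribosomal RNA, had the largest difference with Cl-BBQ (−0.19, limma adjusted p = 0.534).

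The 57 cytosolic ribosomal protein genes had medians of −0.004 with TCDD (26 higher, 31 lower; 2 at an unadjusted p under 0.05) and −0.006 with Cl-BBQ (22 higher, 35 lower; 2 at an unadjusted p under 0.05). Without vehicle array 3 the TCDD median was −0.010, and without vehicle array 1 the Cl-BBQ median was −0.004. Rpl12 was the lowest of them at −0.19 and −0.37. Of the subunits encoded in mitochondrial DNA, 2 were measured under a single symbol. COX2, subunit II of complex IV, differed by 0.04 with TCDD (interval −0.07 to 0.16) and −0.05 with Cl-BBQ (interval −0.17 to 0.07). ND3, a membrane subunit of complex I, differed by 0.08 with TCDD (interval −0.11 to 0.26) and −0.06 with Cl-BBQ (interval −0.24 to 0.13). The difference in medians between these lists and the 89 genes was not tested.

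**Figure D5:**
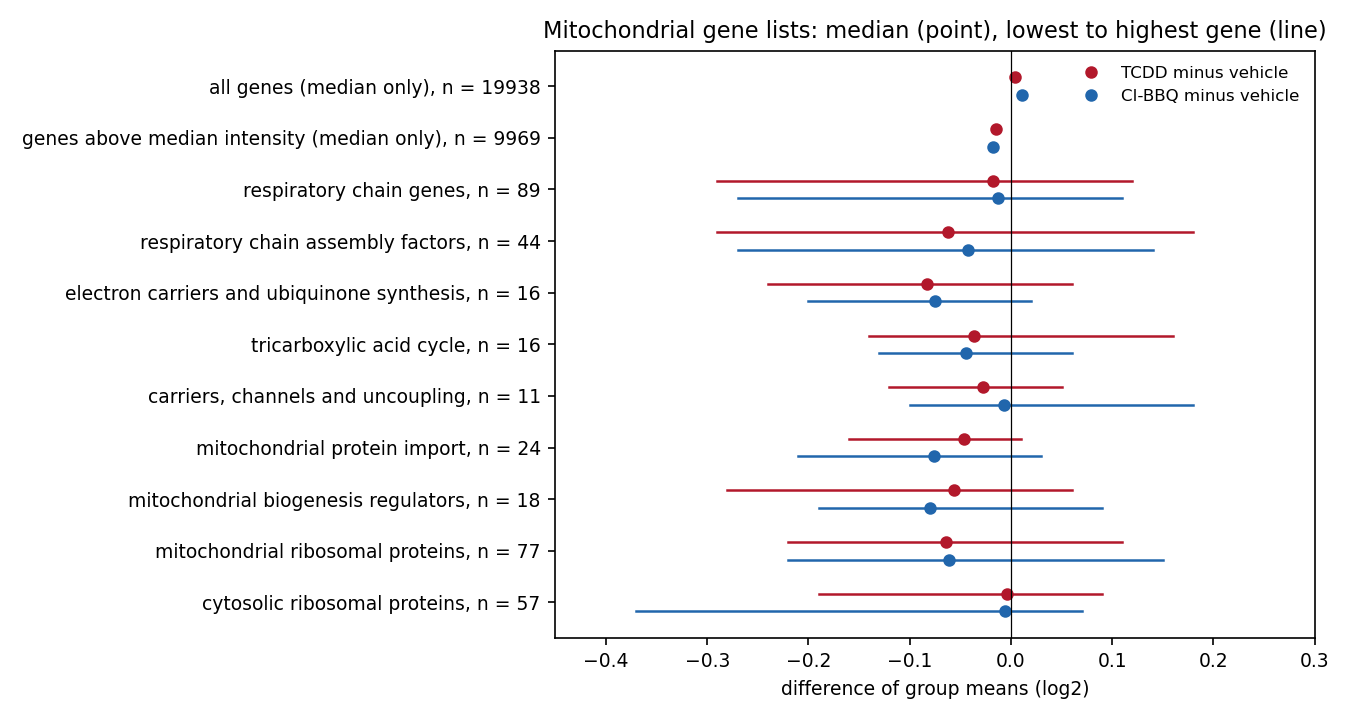
Median log2 difference (points) and the lowest to highest gene (lines) of mitochondrial and ribosomal gene lists, TCDD minus vehicle in red above Cl-BBQ minus vehicle in blue; all genes and the brighter genes are shown by their median alone. The 89 respiratory chain genes have medians of −0.02 and −0.01, and the 77 mitochondrial ribosomal protein genes −0.06 with either ligand.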

How the data were processed

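RNA of 12 samples was hybridised to Affymetrix mouse gene arrays. The deposited values are log2 intensities per probe set that the authors made with RMA, per the submitters' processing notes; software version, probe library and the arrays processed together were not given in the sources used here. That the scale is log2 was read from the values, 2.49 to 14.16 with array medians of 7.11 to 7.24. The labelling kit named in the labels is one for 3′ arrays, whereas the probe table is that of a whole-transcript array. The number of arrays limits the precision. All 12 columns were matched to samples by name.

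The table held 35556 probe sets, 21789 with 1 symbol, 1621 with several and 12146 not listed in the probe table. The probe set with the highest mean was kept per gene. The Entrez identifiers of all 89 members were found in RefSeq (GRCm38.p6) with the same symbol. Other protein-coding genes whose symbols fit the rule, such as Cox7c and Ndufb1, were not analysed here. The 3 groups were fitted in limma 3.58.1 (R 4.3.3) with 9 residual degrees of freedom and an intensity trend, two-sided, with Benjamini-Hochberg adjustment over 19938 genes and a call at an adjusted p under 0.05. No set test was run. Figures used matplotlib 3.10.9 (Python 3.11.15).

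The members and lists were chosen with earlier results of these data known, and the cytosolic ribosomal list was narrowed to leave out kinases and pseudogenes. Genes named were every member called, the highest and lowest member of each complex in each comparison, paralogues, the Sdh genes, the most changed gene of each other list and Cyp1b1. Further members, such as Ndufa7, Ndufaf2 and Cox5b, and the genes Tmem126b, Cycs, COX2, Bank1, Nqo1 and Ahrr were named after their values were seen. The labels state no pairing. Deviations of same-numbered TCDD and Cl-BBQ arrays correlated at 0.606, 0.113, 0.157 and 0.365, those of TCDD and vehicle at −0.0701, 0.14, 0.0402 and 0.182, and those of Cl-BBQ and vehicle at −0.134, 0.0871, −0.00875 and −0.0363. By the rule that every pair exceeds 0.1, the numbers were taken to pair TCDD with Cl-BBQ arrays only. Alternatives were centring, quantile normalisation, no dim genes, other probe set rules, no trend, 2 groups alone, array weights, the replicate block and leaving out each array.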

Additional observations from a re-analysis of the deposited data

Results flagged for a closer look

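In 10 of 288 groups of 4 arrays (3.47%; each gene, and the median of the 89 genes and of each complex, in each of 3 groups) a single array stood apart from the others, by Dixon's 95% critical value for the gap over the range; chance gives about 1 in 20. With TCDD, Atp5c1 read 13.00 on array 2 (others 12.97), Cox7a1 7.70 on array 3 (others 7.50 to 7.52) and Ndufa13 11.41 on array 4 (others 11.34 to 11.35). With Cl-BBQ, Cox4i1 read 12.42 on array 1 (others 12.60 to 12.63), Atp5e 12.12 on array 3 (others 12.01 to 12.03), Cox6a2 7.62 on array 4 (others 7.80) and Cox7b2 5.17 on array 4 (others 4.79 to 4.85). With vehicle, Ndufaf2 read 10.79 on array 1 (others 10.82 to 10.83), Cox7b2 5.06 on array 3 (others 4.79 to 4.82) and Cox4i2 7.47 on array 4 (others 7.72 to 7.74).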

How the results depend on the processing

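By limma, 0 of the 89 genes (85 where genes below the median intensity were left out) were called in each of the 3 comparisons under each of 21 alternatives. The lowest adjusted p among them was 0.0662 for TCDD against vehicle (Atp5g1, with array weights), 0.175 for Cl-BBQ against vehicle (Uqcr10, without vehicle array 3) and 0.846 for TCDD against Cl-BBQ (Cox6c, without Cl-BBQ array 1). The median log2 difference of the 89 genes ran from −0.041 to −0.005 for TCDD and from −0.035 to 0.005 for Cl-BBQ (positive only without Cl-BBQ array 1). For TCDD against Cl-BBQ it ran from −0.021 to 0.005 (positive without TCDD array 1 or Cl-BBQ array 2). These medians were not tested. Over all genes, the 39 calls for Cl-BBQ against vehicle became 13 with centring, 96 with quantile normalisation, 18 without the trend, 11 with only the 2 groups fitted and 111 with the replicate block. The 247 for TCDD against vehicle became 391 with array weights and 397 with the replicate block. The 3 for TCDD against Cl-BBQ became 0 with quantile normalisation, 0 without the trend, 0 with only the 2 groups fitted, 9 with array weights and 5 with the replicate block. Leaving out 1 array gave 150 to 321 calls for TCDD, 3 to 61 for Cl-BBQ and 0 to 7 for TCDD against Cl-BBQ. At most 1 of the 18 biogenesis regulators was called for TCDD under any alternative, and 0 genes of the other mitochondrial lists. The causes were not tested. The block, with the number of the replicate as a term and the vehicle arrays included, called 0 of the 89 genes in any comparison. The 4 arrays per group limit the precision, as the widths of the intervals show.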
